A study of Mus musculus with 32 samples.

Results

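The genes described here lie beside the targeted loci of a mouse that lacks the immunoproteasome subunits LMP7 (encoded by Psmb8) and MECL1 (encoded by Psmb10). They were taken by position: a gene start within 5 Mb of the start of Psmb8 on chromosome 17 or of Psmb10 on chromosome 8, in mm9. Symbols of several large families and of well-known cytokine and complement genes (H2-, Psm, Rps, Rpl, Tap, Slc, Zfp and Trim genes, and Tnf, Lta, Ltb, Cfb, C3, Ier3 and Daxx) were left aside. This gave 367 of the 22216 genes in the deposited tables, 240 around Psmb8 and 127 around Psmb10. The other 85 genes of the windows, the targeted genes among them, were not counted as members. The rule itself uses position and symbol, not a measured value. Of the 367 genes, 187 reached an RPKM (reads scaled to gene length and library size) of 1 in at least 4 libraries and were tested, 115 around Psmb8 and 72 around Psmb10. The remaining 180 did not pass, and their highest value in any library was 2.15 RPKM. Among these were 58 genes listed at 0 in all 32 libraries and nearly all of the 49 olfactory receptor genes of the chromosome 17 window, of which 3 passed. Of the 187 tested genes, 17 overlap another listed gene, so their reads may be shared.

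RNA was sequenced from C57BL/6 dendritic cells, grown from bone marrow with GM-CSF and taken on day 9. WT cells were compared with Lmp7-/-Mecl1-/- double-knockout (dKO) cells after 0, 1, 2 or 6 h of lipopolysaccharide (LPS, 1 µg/mL), the bacterial product that matures these cells. Each of the 8 groups had 4 libraries. The labels give neither the number of mice, nor their age, nor whether WT mice were littermates, nor how the alleles were made, so a p-value here speaks of library-to-library variation alone, and that variation could be technical. Depth was 1.27 to 1.87 Gb of sequence on genes per library. Psmb8 (chromosome 17, 34335140 to 34338399) was at 150 to 312 RPKM in the 16 WT libraries (median 183) and at 2.67 to 7.42 in the 16 dKO libraries (median 4.61). Psmb10 (chromosome 8, 108459628 to 108462292) was at 41.6 to 131 RPKM in WT (median 53.8) and at 2.37 to 17.1 in dKO (median 6.36). Both targeted genes were therefore low in every library labelled dKO. Of the 8 dendritic cell markers examined, Xcr1 alone was below 1 RPKM in all 32 libraries, and the 8 summed to 741 to 1692 RPKM in WT and 594 to 1383 in dKO, whereas T and NK cell markers were below 1 RPKM in all 32 libraries (5 of 5). Neutrophil markers summed to 346 to 1118 RPKM in WT and 161 to 335 in dKO, and eosinophil, mast cell and basophil markers to 384 to 1245 in WT and 181 to 510 in dKO. Macrophage and monocyte markers summed to 2977 to 16098 RPKM in WT and 5096 to 24374 in dKO. In such bulk libraries fewer cells of a type and less RNA per cell cannot be told apart. By correlation with the WT group means, 5 dKO libraries resembled WT cells of a different time more than WT cells of their own labelled time. Replicate 2 of 0, 1 and 2 h was nearest to WT at 1, 2 and 0 h, in that order. Replicate 4 of 2 and 6 h was nearest to WT at 6 and 2 h. Within each number these are the labelled times in another order. Il6 was at 1124 RPKM in 0 h replicate 2 and at 1.67 in 2 h replicate 2. Whether labels were exchanged was not tested. Results are given with the 5 libraries under their labels and, where they matter, without them.

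Psmb8 sits inside the major histocompatibility complex, a gene-dense stretch that also holds complement genes, the inducible Hsp70 genes, leukocyte receptors and, at its distal end, a large array of olfactory receptor genes. Psmb10 lies in a separate gene-dense stretch beside housekeeping and RNA-processing genes, with the classical cadherin genes Cdh1 and Cdh3 and the CMTM chemokine-like family in the same window. A gene made inactive in the germ line is passed on together with the DNA beside it, which is why neighbours of a targeted gene are examined separately from genes elsewhere.

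Promoters are shown for 6 genes on which the results below turn: the Hspa1a and Hspa1b pair, whose levels moved together, and Fgd2, Pram1, Nrn1l and Glo1, which had large averaged differences and an entry in the RefSeq promoter table. Each is the 250 bases before the annotated start in GRCm38.p6, 5′ to 3′ on the gene's strand. That build is later than the mm9 of the expression tables, so these positions are not on the same scale as the gene positions given elsewhere. Capitals mark 4 motifs, searched on both strands. The inverted repeat of the heat shock element, bound by heat shock factors, was written GAANNTTC. The TATA box, where transcription factors place the polymerase, was written TATAAA. The element bound by the factor NF-Y was written CCAAT. The core of the sites of PU.1, a transcription factor of myeloid cells, was written GAGGAA.
Hspa1a, chr17:34972157-34972406, minus strand: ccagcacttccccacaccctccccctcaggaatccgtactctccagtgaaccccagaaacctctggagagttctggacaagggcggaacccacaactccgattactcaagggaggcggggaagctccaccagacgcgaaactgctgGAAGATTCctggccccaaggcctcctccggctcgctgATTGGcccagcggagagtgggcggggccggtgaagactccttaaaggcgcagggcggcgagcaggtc
Hspa1b, chr17:34959239-34959488, minus strand: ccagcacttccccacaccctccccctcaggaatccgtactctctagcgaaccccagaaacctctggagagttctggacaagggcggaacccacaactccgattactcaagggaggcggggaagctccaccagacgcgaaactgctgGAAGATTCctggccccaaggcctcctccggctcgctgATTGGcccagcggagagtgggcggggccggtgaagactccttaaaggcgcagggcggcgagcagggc
Fgd2, chr17:29360664-29360913, plus strand: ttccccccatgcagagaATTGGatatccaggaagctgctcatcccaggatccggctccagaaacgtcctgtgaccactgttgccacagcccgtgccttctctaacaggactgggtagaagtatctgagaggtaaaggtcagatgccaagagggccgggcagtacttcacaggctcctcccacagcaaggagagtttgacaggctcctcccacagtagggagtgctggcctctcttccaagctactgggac
Pram1, chr17:33637845-33638094, plus strand: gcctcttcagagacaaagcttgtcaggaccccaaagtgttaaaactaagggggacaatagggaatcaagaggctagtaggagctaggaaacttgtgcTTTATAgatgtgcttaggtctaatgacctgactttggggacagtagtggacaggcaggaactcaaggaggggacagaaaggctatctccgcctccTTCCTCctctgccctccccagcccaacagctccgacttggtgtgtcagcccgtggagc
Nrn1l, chr8:105893317-105893566, plus strand: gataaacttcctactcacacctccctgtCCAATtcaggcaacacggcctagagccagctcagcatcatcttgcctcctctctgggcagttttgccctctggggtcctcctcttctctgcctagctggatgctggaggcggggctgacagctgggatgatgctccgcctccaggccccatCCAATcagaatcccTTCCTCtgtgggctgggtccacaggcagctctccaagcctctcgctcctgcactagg
Glo1, chr17:30612660-30612909, minus strand: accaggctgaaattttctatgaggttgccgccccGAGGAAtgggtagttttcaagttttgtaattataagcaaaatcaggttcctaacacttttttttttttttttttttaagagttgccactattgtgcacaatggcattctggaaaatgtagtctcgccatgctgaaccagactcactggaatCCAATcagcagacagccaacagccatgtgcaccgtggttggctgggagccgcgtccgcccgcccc
The Hspa1a and Hspa1b windows were identical at 247 of 250 positions (98.8%), and both held 1 GAANNTTC, starting 104 bases before the gene start, and 1 CCAAT on the opposite strand, starting 67 bases before it. GAANNTTC was in none of the other 4 windows shown. It occurred in 6.78% of the 27025 promoters of the table and in 9 of the 129 tested flanking genes with an entry (6.98%). Pram1 held TATAAA once and GAGGAA once, each on the opposite strand. Nrn1l held CCAAT at 2 positions and GAGGAA at 1. Glo1 held CCAAT once and GAGGAA once. Fgd2 held CCAAT once, on the opposite strand. TATAAA was in 13% of all promoters, CCAAT in 34.5% and GAGGAA in 23.1%, against 8.53%, 39.5% and 31.0% of those of the tested flanking genes. A match of these letters is a description of the window and not a bound site.

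The first comparison asked whether the neighbours of the targeted genes differed between dKO and WT more often than genes elsewhere, with the genotype difference averaged over the 4 times. Of the 187 tested flanking genes, 64 were called (limma on log2(RPKM + 0.5), adjusted p below 0.05 by Benjamini-Hochberg over all 11154 genes tested), which is 34.2% against 31.2% of all genes tested. Of the 64, 11 were higher in dKO (7.73% of all genes tested were) and 53 lower (23.4% of all). The split depended on scaling: with median-of-ratios scaling, which moved the median of all genes from -0.10 to 0.01 on the log2 scale, 22 were higher and 36 lower, and with quantile normalization 25 and 36. A share of spike-in RNA that was higher in WT (0.133% to 0.328% of the signal) than in dKO (0.0943% to 0.127%) moved with genotype, and its part in this split was not tested. A call with at least a 2-fold change was made for 8 flanking genes, or 4.28% against 2.82% of all: Fgd2, Olfr111, Pram1, Nrn1l, Mtss1l and Olfr110 were lower in dKO, and Gm8801 and Hspa1b were higher. Gm8801, Nrn1l and Mtss1l had no library at 1 RPKM in the lower genotype, so they passed the filter through the higher one alone and had to differ, and nothing is read from this share. The median difference was -0.12 over the flanking genes and -0.10 over all genes tested, and the median size of the difference was 0.17 in both. Around Psmb8, 45 of 115 were called (39.1%), and 130 of 428 on the rest of chromosome 17 (30.4%). Around Psmb10 19 of 72 were called (26.4%), and 189 of 524 on the rest of chromosome 8 (36.1%). The share called on the other chromosomes was 30.9%. Without the 5 dKO libraries, 111 flanking genes were called, 59.4% against 61.4% of all, 16 higher in dKO (16.4% of all) and 95 lower (45% of all).

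Within the windows, no steady change with distance was seen. In the first 1 Mb 30 of 90 tested genes were called (33.3%), in the second 14 of 51 (27.5%), in the third 3 of 13 (23.1%), in the fourth 7 of 15 (46.7%) and in the fifth 10 of 18 (55.6%). The last 3 of these distances held fewer than 20 genes each. Within 2 Mb, where they held more, 44 of 141 were called (31.2%). Spearman's rho between distance and the size of the averaged difference was 0.067 over the 187 genes, 0.108 around Psmb8 and -0.01 around Psmb10. Genes of a window share the libraries and can share regulation, so these are descriptions without a test. Among the genes lower in dKO, those with the largest differences stood far apart. Fgd2 lay 4.84 Mb from Psmb8 on the side of lower coordinates and Olfr111 3.33 Mb away on the other. Pram1 lay 0.56 Mb from Psmb8, Nrn1l 0.042 Mb from Psmb10 and Mtss1l 4.79 Mb from Psmb10.

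**Figure D1:**
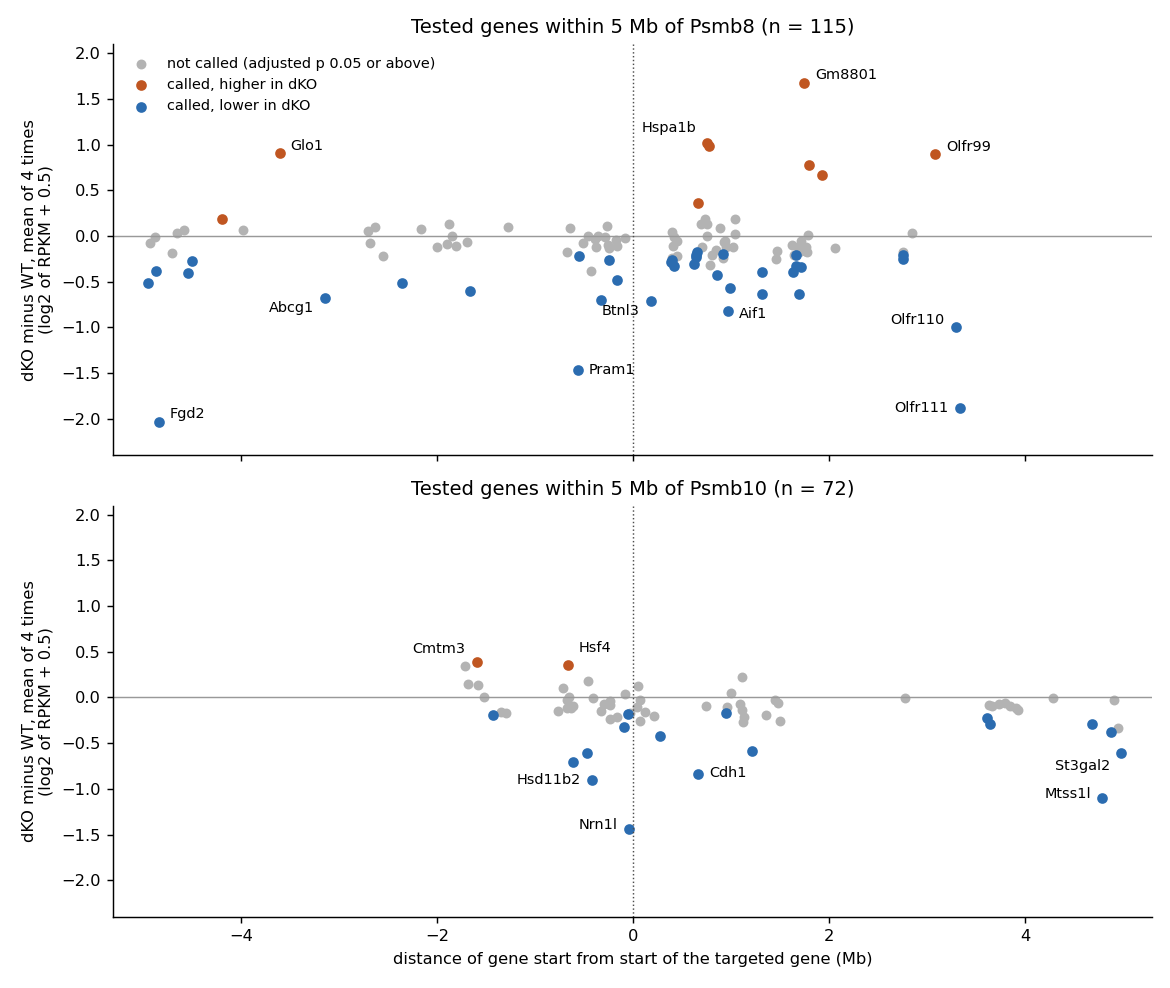
Averaged dKO minus WT difference of each tested gene, on the log2(RPKM + 0.5) scale, against the distance of its start from the start of Psmb8 (upper panel, 115 genes) or Psmb10 (lower panel, 72 genes) in Mb. Orange points were called higher in dKO and blue points lower (adjusted p below 0.05). Large differences such as those of Fgd2 (-2.03), Olfr111 (-1.89) and Gm8801 (1.68) stand among neighbours near 0.

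**Figure D2:**
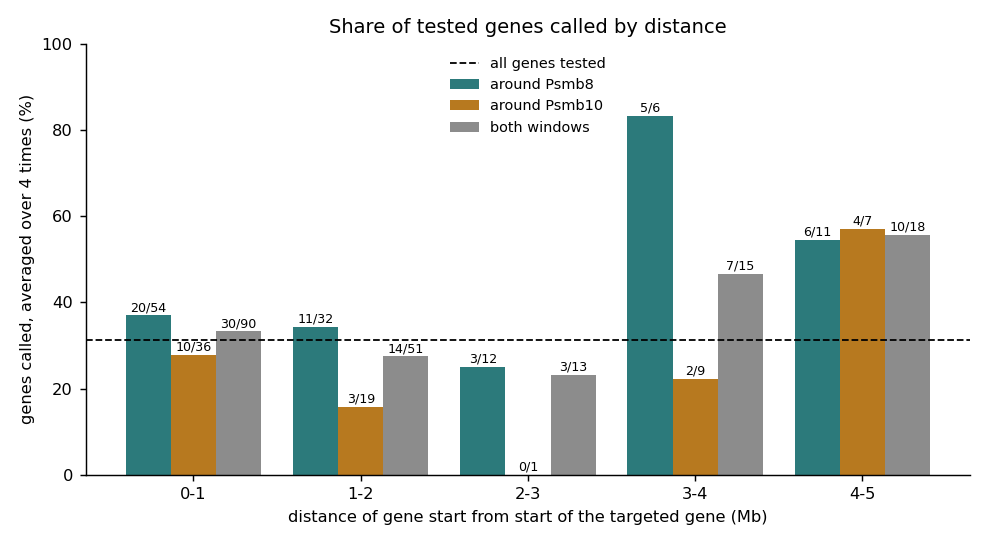
Percentage of tested genes called for the averaged dKO minus WT difference in each 1 Mb of distance, around Psmb8, around Psmb10 and in both windows together, with the called and tested genes above each bar. The dashed line is the share over all genes tested, 31.2%. The first 1 Mb of both windows together holds 30 of 90, close to that line, and the bars beyond 2 Mb rest on few genes.

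The nearest 4 tested members on either side of each targeted gene gave 16 genes, of which 5 were called for the averaged difference, all lower in dKO. That share is close to the 31.2% of all genes tested. Genes left aside by symbol, such as Tap, Psm and H2- genes, can lie nearer and are not among the 16. Of the 58 such genes tested over both windows, targeted genes apart, 20 were called for the averaged difference (34.5%). At all 4 times in 1 direction 6 of the 58 were called (10.3% against 2.75% of all). Nrn1l, which encodes a neuritin-like surface protein, was at -1.43 ± 0.14 on the log2 scale (SE). Btnl3, a butyrophilin-like gene, was at -0.71 ± 0.15 and Col11a2, a collagen XI chain, at -0.48 ± 0.08. Gpsm3, a regulator of G protein signalling, was at -0.29 ± 0.09 and Edc4, a scaffold of mRNA decapping, at -0.19 ± 0.07. Only Nrn1l changed by more than 2-fold among the 16. Of the other 11, the chromatin reader Brd2 was at -0.03 ± 0.06, the Polycomb subunit Ring1 at -0.05 ± 0.08, the retinoid receptor Rxrb at -0.11 ± 0.14, the homeobox factor Pbx2 at 0.05 ± 0.13 and the receptor Ager at -0.25 ± 0.15. Beside Psmb10, the kinase Pskh1 was at -0.17 ± 0.13, Thap11 at 0.04 ± 0.16, the dipeptidase genes Dpep3 and Dpep2 at -0.11 ± 0.20 and 0.13 ± 0.10, the helicase Ddx28 at -0.03 ± 0.11 and Dus2l, a tRNA-modifying enzyme, at -0.26 ± 0.11. Brd2, 0.086 Mb from Psmb8, had 52.1 to 96.9 RPKM in WT (median 74.0) and 47.8 to 93.2 in dKO (median 69.9). Dpep2, 0.049 Mb from Psmb10, had 70.01 to 206 RPKM in WT (median 175) and 69.8 to 219.8 in dKO (median 186). For both genes the ranges of the genotypes overlapped almost wholly. By an exact two-sided permutation of the 8 libraries of a time (70 splits, smallest possible p 0.0286), the smallest p was reached by 2 of the 16 genes at 0 h, 3 at 1 h, 2 at 2 h and 4 at 6 h. Over all genes tested, 26.5%, 32.1%, 13.4% and 31.1% had groups of 4 that did not overlap at these times. Nrn1l reached it at 0, 1 and 2 h. Btnl3 and Col11a2 were called at fewer times than Nrn1l, and the calls of Edc4 and Gpsm3 were lost with quantile normalization. The call of Edc4 was also lost with median-of-ratios scaling and on leaving out any of 13 single libraries. Btnl3 and Col11a2 each had 1 dKO library at 1 RPKM, so WT libraries carried them through the filter.

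At single times, 17 of the 187 flanking genes were called at 0 h (9.09% against 6.84% of all genes tested), 2 higher in dKO (0.932% of all) and 15 lower (5.91%). At 1 h 19 were called (10.2% against 10.9%), 3 higher (1.84% of all) and 16 lower (9.02%). At 2 h 18 were called (9.63% against 12.4%), 7 higher (5.15% of all) and 11 lower (7.24%). At 6 h 21 were called (11.2% against 14.8%), 4 higher (4.55% of all) and 17 lower (10.2%). Groups of 4 that did not overlap were seen for 51 flanking genes at 0 h (27.3% against 26.5% of all), 62 at 1 h (33.2% against 32.1%), 24 at 2 h (12.8% against 13.4%) and 56 at 6 h (29.9% against 31.1%). These shares lay close to those of all genes at each time. With median-of-ratios scaling these splits were 3 and 11 at 0 h, 6 and 14 at 1 h, 17 and 19 at 2 h, and 9 and 19 at 6 h. With quantile normalization they were 6 and 14, 7 and 13, 17 and 17, and 8 and 16. Without the 5 libraries, 47 were called at 0 h (26.2% of all), 73 at 1 h (39.2%), 60 at 2 h (33.1%) and 86 at 6 h (46.9%). That left 3 dKO libraries at 0, 1 and 6 h and 2 at 2 h. Calls in the same direction at all 4 times were made for 7 flanking genes, 3.74% against 2.75% of all genes tested. Gm8801 and Olfr99 were higher in dKO (2 genes, 0.538% of all were), and Fgd2, Pram1, Olfr111, Nrn1l and Mtss1l were lower (5 genes, 2.21% of all). Gm8801, Nrn1l and Mtss1l are again among them, so this share too is given as a description only. Without the 5 libraries it was 22 genes, or 11.8% against 11.4%. For 3 genes the 16 dKO values and the 16 WT values did not overlap at all (1.6% against 1.07% of all): Gm8801 was higher in dKO (0.233% of all were), and Olfr111 and Mtss1l were lower (0.834% of all). Of these, Olfr111 alone reached the filter in both genotypes.

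**Figure D3:**
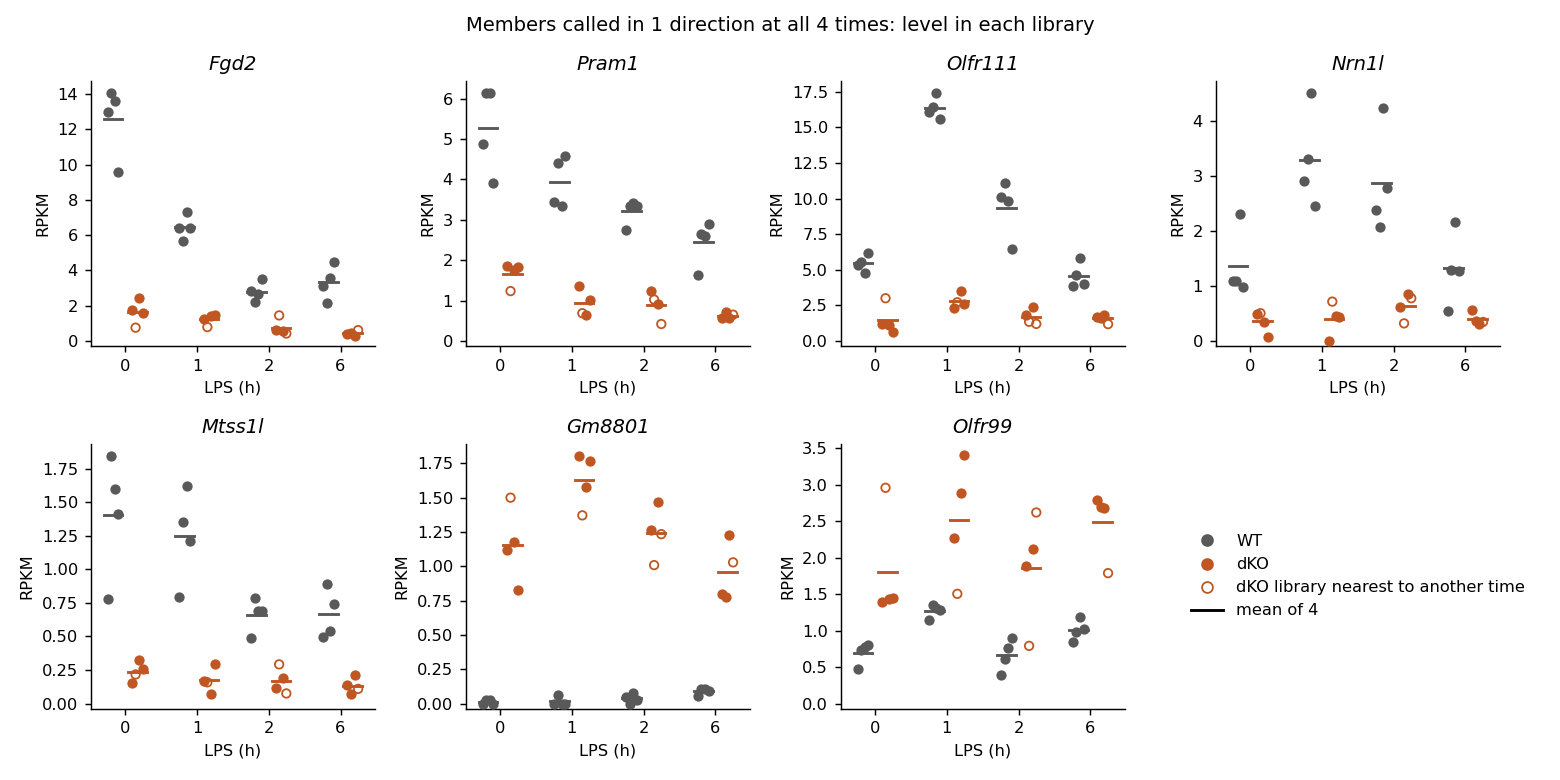
RPKM in each of the 32 libraries for the 7 flanking genes called in 1 direction at all 4 times, by hours of LPS. Grey points are WT, orange points dKO, open points the 5 dKO libraries that resembled another time, and bars the mean of 4 libraries. The dKO points lie below WT at every time for Fgd2 and Olfr111, for example 0.751 to 2.45 against 9.58 to 14.1 RPKM at 0 h for Fgd2, and above WT for Gm8801.

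Among the immune and myeloid genes, the largest difference was that of Fgd2 (chromosome 17, 29497859 to 29516480), an exchange factor of the FGD family that activates the small GTPase Cdc42 and is found in antigen-presenting cells. At 0 h the WT libraries had 13, 14.1, 13.6 and 9.58 RPKM and the dKO libraries 1.74, 0.751, 2.45 and 1.55. At 1 h WT had 6.39, 5.65, 7.32 and 6.38 RPKM, and dKO had 1.25, 0.784, 1.39 and 1.5. At 2 h the values were 2.81, 2.23, 2.66 and 3.49 in WT and 0.606, 1.45, 0.566 and 0.419 in dKO. The groups did not overlap at any of these times. At 6 h the WT values of 3.13, 2.17, 3.56 and 4.45 RPKM again lay above the dKO values of 0.395, 0.452, 0.305 and 0.611. Averaged over the times, Fgd2 differed by -2.03 ± 0.12 on the log2 scale (SE, adjusted p = 4.74e-14), and by -2.0 without the 5 libraries. In WT it fell by 1.79 ± 0.23 from 0 to 6 h of LPS. None of the 100-base words of its transcripts was found in another gene.

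Pram1 (chromosome 17, 33775001 to 33782651) encodes an adaptor protein of myeloid cells. Its WT libraries had 4.89, 6.14, 6.15 and 3.91 RPKM at 0 h, against 1.85, 1.23, 1.76 and 1.82 in dKO. At 6 h they had 1.63, 2.66, 2.61 and 2.89, against 0.558, 0.720, 0.575 and 0.649 in dKO. WT lay above dKO at both times with no overlap, and likewise at 1 and 2 h, where the means were 3.95 ± 0.638 and 3.21 ± 0.318 RPKM in WT and 0.929 ± 0.339 and 0.90 ± 0.347 in dKO (SD, n = 4). Pram1 differed by -1.47 ± 0.10 on average (adjusted p = 9.22e-13). In GENCODE transcripts, 81.1% of the 100-base words of Pram1 also belonged to Gm20507, an overlapping gene model, so reads of this region cannot be given to Pram1 alone.

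Aif1 (chromosome 17, 35307937 to 35312946) encodes Iba1, a calcium- and actin-binding protein of macrophages. It had 40.5, 42.2, 46.0 and 39.6 RPKM in WT at 0 h and 28.4, 13.9, 30.6 and 22.9 in dKO. The lowest of these, 13.9 RPKM, was in replicate 2, one of the 5 libraries. At 1 h WT had 30.2, 29.4, 33.5 and 31.9 RPKM and dKO 15.6, 11.8, 15.1 and 19.8, without overlap. At 6 h the genotypes overlapped through replicate 4 of dKO, at 17.2 RPKM, whereas the other 3 dKO libraries had 5.11 to 7.25 and WT had 10.2 to 15.6. For Aif1 the averaged difference was -0.82 ± 0.14 (adjusted p = 2.44e-05) and -0.76 without the 5 libraries. Lst1, a leukocyte-specific transmembrane adaptor gene beside Aif1, fell by 0.57 ± 0.07 on the log2 scale and had 30.6 to 55.7 RPKM in WT and 21.6 to 36.5 in dKO. Of the 16 tested members of the immune and myeloid list, 1 was called higher (C2, a complement protease, 0.37 ± 0.13) and 6 lower (Fgd2, Pram1, Aif1, Lst1, Gpsm3 and Hp), with a median of -0.19, against 7.73% higher and 23.4% lower over all genes tested. With median-of-ratios scaling it was 2 and 5, and without the 5 libraries 1 and 10. The neutrophil, eosinophil and dendritic cell marker sums given above had lower ranges in dKO, as these lower genes did. The macrophage and monocyte sum had a higher range in dKO. The part of cell content in the result was not tested. C2 had no WT library at 1 RPKM, shared 35.5% of its words with another gene model, and lost its call on leaving out any of 15 single libraries.

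Olfactory receptor genes, which encode odorant receptors of the nose, passed the filter at 3 of 49 members. Olfr111 (chromosome 17, 37666902 to 37667942) was lower in dKO at every time. Its WT libraries had 5.33, 5.55, 4.78 and 6.19 RPKM at 0 h and 16.1, 16.4, 17.4 and 15.6 at 1 h. The dKO libraries had 1.22, 3.00, 1.11 and 0.646 RPKM at 0 h and 2.30, 2.71, 3.5 and 2.58 at 1 h. The genotypes were apart at both times and WT rose in the first hour of LPS, by 1.5 on the log2 scale. At 2 h WT had 10.1, 11.1, 9.84 and 6.45 RPKM and dKO 1.8, 1.34, 2.40 and 1.19. At 6 h the values were 3.82, 4.66, 5.83 and 3.98 in WT and 1.69, 1.63, 1.82 and 1.18 in dKO. The lowest WT library of the 16 (3.82 RPKM) lay above the highest dKO library (3.5 RPKM), and the averaged difference was -1.89 ± 0.12 (adjusted p = 1.89e-13). Olfr110, the neighbouring receptor gene, fell by 1.00 ± 0.10 on the log2 scale, with 1.26 to 4.59 RPKM in WT and 0.488 to 1.63 in dKO. The pair shared 14.8% (Olfr111) and 22.8% (Olfr110) of their 100-base words, so some reads could belong to either gene.

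Olfr99 (chromosome 17, 37416446 to 37417363) moved the other way. At 0 h WT had 0.469, 0.734, 0.773 and 0.798 RPKM and dKO 1.39, 2.96, 1.44 and 1.45. At 6 h WT had 0.842, 0.987, 1.19 and 1.02 RPKM and dKO 2.80, 2.70, 2.69 and 1.79. WT lay below dKO at both times without overlap. At 1 h the means were 1.27 ± 0.0908 RPKM in WT and 2.52 ± 0.821 in dKO, and at 2 h 0.668 ± 0.213 and 1.86 ± 0.772 (SD, n = 4), where dKO replicate 2 (0.792 RPKM) fell among the WT values. The averaged difference was 0.89 ± 0.12 (adjusted p = 5.75e-07) and 0.96 without the 5 libraries. The calls at 0 h and 1 h did not hold without each of several single libraries: at 0 h the difference was 0.91 with all, 0.81 without WT replicate 1 and 0.70 without dKO replicate 2, neither called, and at 1 h it was 0.73 with all and 0.59 without dKO replicate 4.

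Gm8801, a predicted gene (chromosome 17, 36084099 to 36090262), was close to 0 in WT and present in every dKO library. WT had 0, 0.0267, 0.0271 and 0 RPKM at 0 h, and dKO had 1.12, 1.5, 1.18 and 0.828. At 1 h WT had 0, 0.0633, 0 and 0 RPKM, and dKO had 1.8, 1.37, 1.58 and 1.77. At 2 h the values were 0.0452, 0, 0.0776 and 0.0277 in WT and 1.27, 1.01, 1.47 and 1.23 in dKO. Every WT library lay far below every dKO library at these times. At 6 h the gap was narrower, with 0.0554, 0.103, 0.106 and 0.0911 RPKM in WT and 0.801, 0.775, 1.23 and 1.03 in dKO. Averaged over the times, Gm8801 differed by 1.68 ± 0.06 (adjusted p = 3.98e-18), a value that the pseudocount of 0.5 sets in part: it was 1.10 with a pseudocount of 1 and 3.29 with 0.1. No WT library reached 1 RPKM, so the gene passed the filter through dKO alone and had to differ. The same held for C2 and 1 further gene model, and for Nrn1l and Mtss1l in the other direction.

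Nrn1l (chromosome 8, 108417470 to 108418915) was the nearest member with a 2-fold change, 42 kb from Psmb10. At 0 h WT had 1.09, 1.09, 2.31 and 0.975 RPKM and dKO 0.495, 0.503, 0.339 and 0.0780. At 1 h WT had 2.90, 3.30, 4.49 and 2.46 RPKM and dKO 0, 0.713, 0.454 and 0.432. At 2 h WT had 2.38, 2.07, 4.24 and 2.78 RPKM and dKO 0.612, 0.318, 0.844 and 0.775. The genotypes did not overlap at these 3 times. At 6 h WT replicate 1 (0.549 RPKM) fell just under the highest dKO library (0.558), with the other WT libraries at 1.27 to 2.16 and the other dKO libraries at 0.30 to 0.366. The averaged difference was -1.43 ± 0.14 (limma, adjusted p = 3.58e-09) and -1.46 without the 5 libraries. No dKO library reached 1 RPKM, so Nrn1l passed the filter through WT alone and had to differ, and these values are a description only. Its call at 0 h (-1.11) did not hold without WT replicate 3 (-0.90) or dKO replicate 4 (-0.93), and that at 6 h (-0.96) not without WT replicate 3 (-0.75) or WT replicate 4 (-0.94). The transcripts of Nrn1l shared 42.7% of their words with those of Edc4, the next gene, which was at -0.19 ± 0.07.

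Mtss1l (chromosome 8, 113245384 to 113265300) encodes a protein of the MIM family that links membranes to actin. WT had 0.782, 1.85, 1.6 and 1.41 RPKM at 0 h and dKO 0.153, 0.217, 0.323 and 0.257. At 1 h WT had 0.796, 1.35, 1.62 and 1.22 RPKM and dKO 0.170, 0.158, 0.0710 and 0.298. Over all times the lowest WT library (0.490 RPKM) lay above the highest dKO library (0.323). On average Mtss1l differed by -1.09 ± 0.09 (limma, adjusted p = 6.29e-11). No dKO library reached 1 RPKM, so Mtss1l passed the filter through WT alone and had to differ. Its p-value and the gap between genotypes are given as a description only. The call of Mtss1l at 2 h (-0.81) was lost when only the groups of that time were fitted. Further along the same window, St3gal2, a sialyltransferase gene 4.98 Mb from Psmb10, fell by 0.61 ± 0.13 and was the last member inside, and Ddx19a, the first gene outside, was at -0.10 ± 0.08. At the far edges of chromosome 17, Ppil1, a spliceosomal prolyl isomerase, was at -0.51 ± 0.17 just inside and Cpne5 just outside had at most 0.438 RPKM, whereas Esp23 inside and Pgk2 outside were listed at 0 in all libraries. Toward lower coordinates from Psmb10, Cdh11 inside had at most 0.393 RPKM and Cdh8 outside was listed at 0.

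Members that were higher in dKO included a metabolic enzyme and the inducible heat shock genes. Glo1 (chromosome 17, 30729807 to 30749604) encodes glyoxalase I, which detoxifies methylglyoxal. At 0 h WT had 14.2, 13.9, 11.7 and 12.5 RPKM and dKO 25.9, 13.9, 27.4 and 27.0. At 1 h WT had 9.30, 8.87, 7.57 and 7.58 RPKM and dKO 15.1, 13.1, 14.3 and 15.1. At 2 h WT had 5.34, 5.74, 5.23 and 5.44 RPKM and dKO 13, 25.1, 9.71 and 6.70. Each dKO library lay above every WT library of its time except replicate 2 at 0 h, one of the 5 libraries, which fell among the WT values. At 6 h the values were 4.90, 4.04, 3.65 and 2.60 in WT and 6.51, 5.65, 7.63 and 13.2 in dKO. The averaged difference was 0.90 ± 0.13 (adjusted p = 4.58e-06), and 0.88 without the 5 libraries. Over the redox and mitochondrial list, 1 of 12 tested members was called higher (Glo1) and 4 lower, among them Cyb5b, a cytochrome b5 of the outer mitochondrial membrane (-0.58 ± 0.12), and Nae1, a subunit of the NEDD8-activating enzyme (-0.19 ± 0.05). Of all genes tested, 31.2% were called. With quantile normalization it was 2 higher and 2 lower, with median-of-ratios scaling 2 and 3, and without the 5 libraries 2 and 7. Nae1 was called under neither other scaling.

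Hspa1a (chromosome 17, 35106304 to 35109101) and Hspa1b (chromosome 17, 35093374 to 35096183) encode the stress-inducible Hsp70 chaperone, and their promoters were shown above. At 0 h Hspa1a had 0.278, 0.379, 0.238 and 0.244 RPKM in WT and 1.17, 10.4, 1.10 and 0.101 in dKO. At 2 h it had 1.76, 2.58, 2.18 and 2.46 RPKM in WT and 8.49, 5.42, 5.3 and 20.2 in dKO. At 6 h WT had 7.39, 8.75, 9.28 and 6.01 RPKM and dKO 14.0, 11.1, 13.8 and 2.69. The extreme dKO values at 0, 2 and 6 h (10.4, 20.2 and 2.69 RPKM) all came from the 5 libraries. Hspa1b had 0.958, 8.09, 0.896 and 0.0496 RPKM in dKO at 0 h, the same order of libraries, against 0.150 to 0.292 in WT. The averaged differences were 0.98 ± 0.27 for Hspa1a (adjusted p = 0.00648) and 1.01 ± 0.25 for Hspa1b (adjusted p = 0.00244). Without the 5 libraries they were 0.78 and 0.86, and both were called. The calls at 2 h (1.72 and 1.67) were lost without dKO replicate 4, where the differences were 1.31 and 1.33. The pair is near-identical in part, since 48.6% of the 100-base words of Hspa1a and 49.9% of those of Hspa1b occurred in other genes, mainly each other, and reads from there could have been counted for either. In the list of heat shock and folding genes, these were the 2 of 4 tested members called, both higher. Over all genes tested 7.73% were called higher and 23.4% lower. With shared words, the 2 are not separate results. Without the 5 libraries 2 members of the list were called higher and 1 lower. Fkbpl, a co-chaperone-like gene, was at -0.22 ± 0.12.

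**Figure D4:**
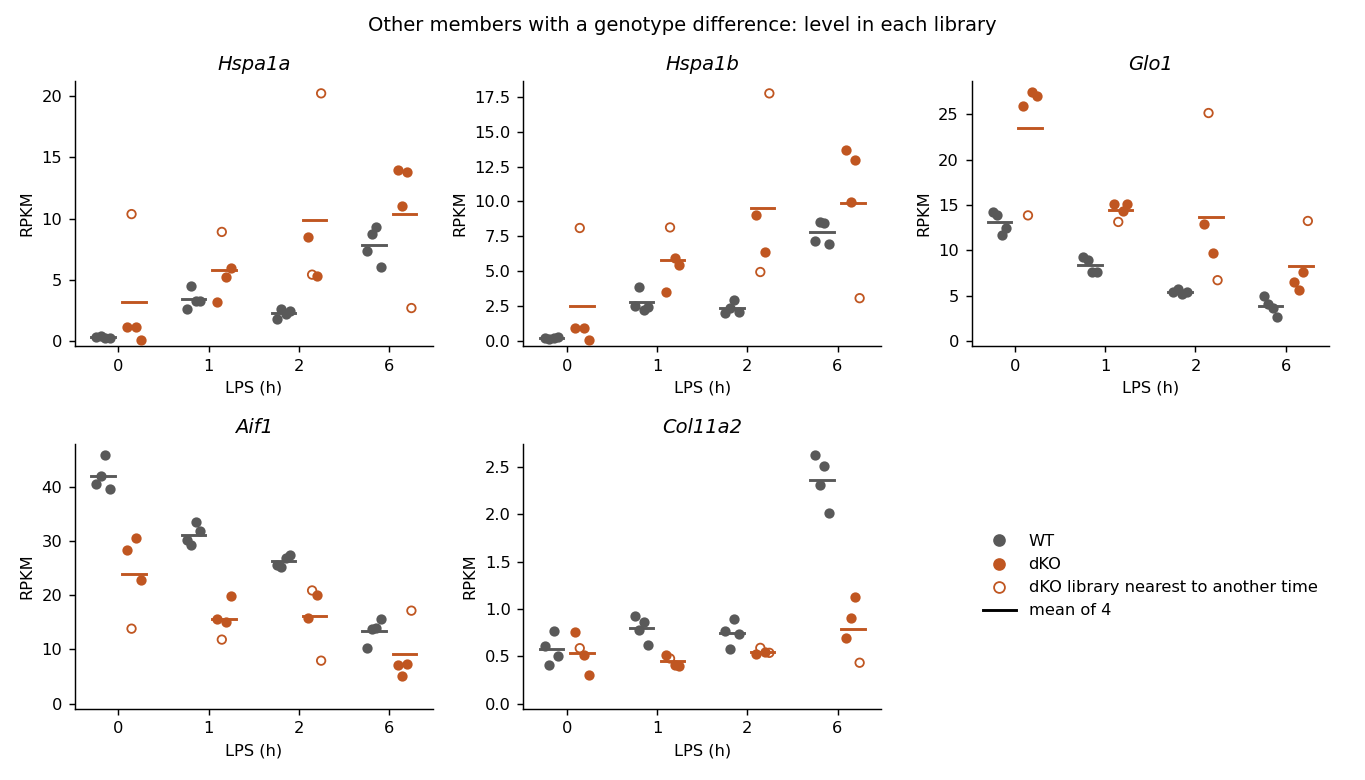
RPKM in each of the 32 libraries for Hspa1a, Hspa1b, Glo1, Aif1 and Col11a2, by hours of LPS. Grey points are WT, orange points dKO, open points the 5 dKO libraries that resembled another time, and bars the mean of 4 libraries. For Hspa1a the open points at 0 h (10.4 RPKM) and 2 h (20.2 RPKM) stand above the rest of their groups, and for Col11a2 WT stands apart from dKO at 6 h.

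A genotype difference that varied between times was called for 1 flanking gene, Col11a2 (0.535% against 0.986% of all genes tested, adjusted p = 0.0209). The 4 WT libraries of 6 h and 1 dKO library were the only ones with 1 RPKM of Col11a2, so it entered the test through the group in which it was high, and its call is given as a description. Col11a2 (chromosome 17, 34176382 to 34203187) had 0.610, 0.409, 0.766 and 0.507 RPKM in WT at 0 h and 0.754, 0.585, 0.515 and 0.302 in dKO. At 6 h it had 2.63, 2.31, 2.51 and 2.02 RPKM in WT and 0.698, 0.909, 1.12 and 0.432 in dKO. The genotypes overlapped at 0 h, where the difference was -0.05 ± 0.15, and stood apart at 6 h, where it was -1.18 ± 0.15 (adjusted p = 3.55e-06). Without the 5 libraries the same test called 31 flanking genes, 16.6% against 22.5% of all.

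Of 24 tested genes of RNA processing and translation, none was called higher and 6 lower, with a median of -0.18. Over all genes tested 7.73% were called higher and 23.4% lower. In this list 14 members were lower and none higher without the 5 libraries. Sf3b3, a subunit of the splicing factor SF3b, fell by 0.38 ± 0.08, Dhx38, a splicing helicase, by 0.23 ± 0.07 and Hnrnpm, a splicing regulator, by 0.22 ± 0.05. With median-of-ratios scaling, 1 member of this list was called higher and 2 lower, and Hnrnpm was not called. Of 23 tested chromatin and transcription regulators, 1 was called higher (Hsf4, a heat shock factor, 0.35 ± 0.13) and 4 lower, with a median of -0.07, against 31.2% of all genes tested called. When the 5 libraries were left out, 11 were lower and none higher. The lower ones included Sik1, a salt-inducible kinase (-0.52 ± 0.10), Tcf19 (-0.64 ± 0.17) and Ppp1r10, a nuclear phosphatase regulator (-0.34 ± 0.06). The calls became 2 higher and 2 lower under median-of-ratios scaling, and 3 and 2 under quantile normalization, Ppp1r10 being called under neither. Hsf4 lost its call without the 5 libraries, where it was at 0.22.

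Of 9 tested members of the list drawn up for cytoskeleton and adhesion, 4 were called lower (Tubb5, Nrm, Fhod1 and Tppp3) and none higher. The median was -0.23, and 23.4% of all genes tested were lower. After median-of-ratios scaling 3 were lower, after quantile normalization 3 were lower and 1 higher, and without the 5 libraries 6 were lower. Fhod1, an actin-bundling formin, had 7.37 to 16.3 RPKM in WT and 4.36 to 14.4 in dKO and fell by 0.71 ± 0.12. Tppp3, a tubulin polymerization promoter, fell by 0.61 ± 0.13, and Tubb5, a beta-tubulin with 99.2 to 298 RPKM in WT and 70.2 to 239 in dKO, fell by 0.40 ± 0.10. Among 6 tested genes of telomeres, centromeres and DNA repair, 2 were called lower: the centromere protein gene Cenpt (-0.32 ± 0.07) and Chtf8, a cohesion factor (-0.17 ± 0.06), whereas the telomere protein gene Terf2 was at -0.22 ± 0.12 and not called. The share of all genes tested that were called was 31.2%. Chtf8 lost its call under both other scalings and on leaving out any of 15 single libraries. Of 16 tested lipid, lysosome and vesicle genes, 3 were called lower and none higher, against 31.2% of all genes tested called. It was 2 higher and 2 lower after median-of-ratios scaling, 3 and 2 after quantile normalization, and 2 and 8 without the 5 libraries. The 3 were Abcg1, a cholesterol exporter (-0.68 ± 0.26), Vps52, a subunit of the GARP tethering complex (-0.26 ± 0.08), and Vac14, a scaffold of lipid kinases (-0.29 ± 0.10). The call of Vac14 was lost on leaving out any of 4 single dKO libraries (replicate 2 at 0 h, replicate 2 at 1 h, and replicates 1 and 3 at 2 h). The call of Abcg1 was lost under 27 of its alternatives, where its difference lay between -0.69 and -0.53, since its adjusted p was 0.0474 with all libraries.

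Adhesion and chemokine-like members around Psmb10 moved in both directions. Cdh1, which encodes E-cadherin, was the 1 cadherin of 5 that passed the filter and fell by 0.83 ± 0.23, from 5.64 to 84.0 RPKM in WT (median 37.8) and 2.17 to 51.3 in dKO (median 18.6). Hsd11b2, the enzyme that inactivates glucocorticoids, fell by 0.90 ± 0.15, with 1.39 to 11.5 RPKM in WT and 0.422 to 5.33 in dKO. Of 3 tested CMTM genes, Cmtm3 was called higher (0.39 ± 0.12), and Cklf (0.15 ± 0.11) and Cmtm4 (0.14 ± 0.11) were not. Over all genes tested 7.73% were called higher. With median-of-ratios scaling and with quantile normalization all 3 were called higher. Under these scalings 32.1% and 33.8% of all genes were called in either direction, and more flanking genes were called higher than in the main fit. Both Notch receptor genes of the windows stayed under the filter.

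Most of these genes were called for a change with LPS, and the count depended on scaling. In WT, 182 of the 187 tested flanking genes were called over the 3 times of LPS (97.3% against 94.1% of all genes tested). With median-of-ratios scaling it was 158 (89.4% of all genes were called), and with quantile normalization 167 (89.3% of all). At 1 h 14 were higher than at 0 h (6.84% of all were) and 106 lower (45.5%), and at 2 h 16 were higher (11.2%) and 144 lower (68.5%). After median-of-ratios scaling the splits were 23 and 27 at 1 h and 43 and 59 at 2 h, and after quantile normalization 23 and 52, and 37 and 82. At 6 h 14 were higher (14.9% of all were) and 117 lower (60.9% of all), with medians of -0.70 over the flanking genes and -0.65 over all. Under median-of-ratios scaling, which brought the median of all genes to -0.03, the 6 h calls split into 50 higher and 65 lower, and with quantile normalization 51 and 72. Hspa1b (3.53 ± 0.51) and Hspa1a (3.40 ± 0.55) had the largest rises in WT at 6 h. Nfat5, the transcription factor of the osmotic stress response, rose by 1.74 ± 0.24, from 9.41 ± 0.909 to 32.6 ± 1.38 RPKM in WT (SD, n = 4) and from 10.1 ± 2.83 to 28.2 ± 9.83 in dKO. Ddah2, a dimethylarginine hydrolase-family gene, rose by 1.55 ± 0.28, from 0.871 ± 0.422 to 3.43 ± 0.680 RPKM in WT and from 0.754 ± 0.540 to 1.40 ± 0.661 in dKO. Ftsjd2, an mRNA cap methyltransferase that shares 31.3% of its words with other gene models, rose by 1.43 ± 0.28. The largest falls were those of Cdh1 (-3.44 ± 0.46), which went from 70.9 ± 9.49 to 6.06 ± 0.527 RPKM in WT and from 41.9 ± 9.38 to 5.48 ± 3.41 in dKO, and of Angptl4, a secreted inhibitor of lipoprotein lipase (-3.24 ± 0.39). Angptl4 went from 4.64 ± 0.648 to 0.0435 ± 0.0572 RPKM in WT and from 1.41 ± 1.07 to 0.0134 ± 0.0268 in dKO. The cytochrome P450 gene Cyp4f16 (-3.13 ± 0.41), Kank3, a regulator of actin (-2.98 ± 0.39), and the metalloproteinase gene Adamts10 (-2.97 ± 0.37) followed. The 3 LPS comparisons share the WT libraries of 0 h. The LPS response at 6 h of none of these 10 genes was called as different between the genotypes (adjusted p from 0.26 for Angptl4 upward). Without the 5 libraries 2 of the 10 were: the difference of the responses, dKO minus WT, was 1.05 ± 0.25 for Angptl4 (adjusted p = 0.00329) and 0.28 ± 0.08 for Ftsjd2 (adjusted p = 0.02).

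**Figure D5:**
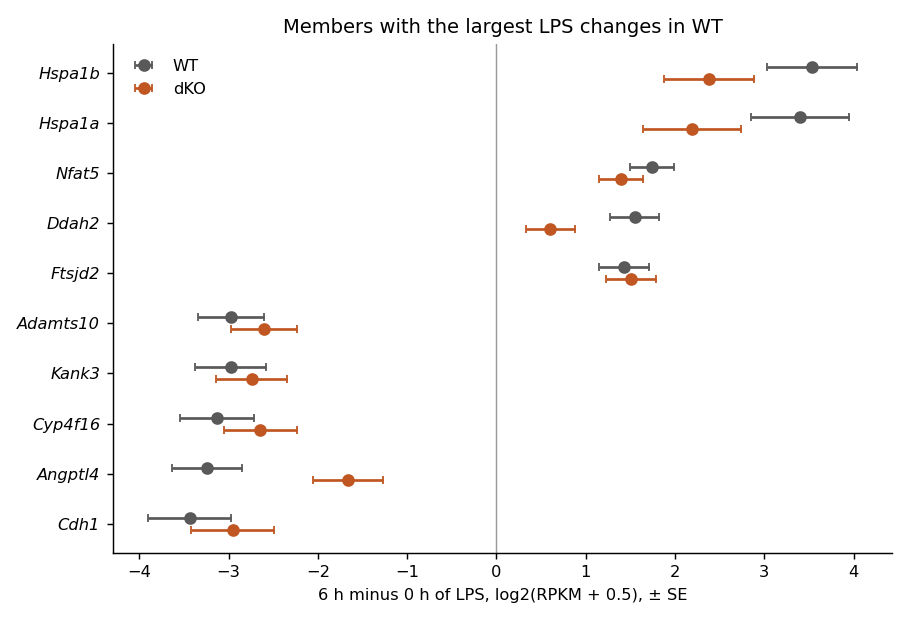
Change from 0 to 6 h of LPS, on the log2(RPKM + 0.5) scale, for the 5 flanking genes that rose most and the 5 that fell most in WT. Grey points are WT, orange points dKO, and bars the SE of the fit. All 10 genes moved in the same direction in both genotypes, with Hspa1b at 3.53 in WT and 2.38 in dKO and Angptl4 at -3.24 and -1.66.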

How the data were processed

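TruSeq RNA v2 libraries were made from total RNA, per the labels' protocols, and the submitters' processing notes name CASAVA 1.8.2 and mm9. The aligner, annotation release, strand setting and counting rule are not given in the sources used here. Each deposited table holds 22216 genes and 92 spike-in entries with 2 values: an RPKM, scaled by the authors to gene length and library total, and a whole-number signal, deposited without a header and read from its values as aligned bases per gene, used for depth alone. Read counts were not recovered, so no count model was used and precision came from the spread between libraries.

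Genes with at least 1 RPKM in at least 4 of 32 libraries (11154) entered limma 3.58.1 in R 4.3.3 on log2(RPKM + 0.5), with 8 group means, an intensity trend, and Benjamini-Hochberg adjustment over all genes of a contrast. Fold changes are on that scale and understate changes of low genes. The fit was tested on simulated data. Members were matched to GENCODE transcripts for shared 100-base words (183 of 187 had words). Promoters came from RefSeq (129 of 187 matched). The members, gene lists and 5 set-aside libraries were chosen with earlier results of these data known. Genes were named by rule: the 10 highest and lowest averaged calls with 1 sign at all times, the nearest 4 per side, those called at all 4 times, up to 3 per role list by smallest p with members a statement needs, the 5 highest and lowest in LPS response, and window edges; uncharacterised symbols only as nearest, constant or edge genes. Of 16 same-number WT and dKO pairs, 1 had deviations correlated above 0.1. The dKO deviations include the 5 libraries nearest to another time, so this cannot settle whether replicate numbers pair the genotypes. The main fit used no pairing. Times share no libraries, and a source shared across times is neither stated nor excluded.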

Additional observations from a re-analysis of the deposited data

Results flagged for a closer look

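For the 16 genes whose library or group values are given, each group of 4 was examined for a library far from the other 3, relative to the group's range. Of 128 groups, 13 held such a library, and chance gives about 1 in 20 groups. Of the 13, 9 were from the 5 dKO libraries nearest to another time.

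In dKO at 0 h, replicate 2 stood apart for Hspa1a (10.4 RPKM, others at most 1.17), Hspa1b (8.09, others at most 0.958), Olfr99 (2.96, others at most 1.45), Glo1 (13.9, others at least 25.9) and Pram1 (1.23, others at least 1.76). In dKO at 2 h, Angptl4 was at 2.44 RPKM in replicate 2 (others at most 0.112) and Ddah2 at 1.45 in replicate 4 (others at most 0.840). In dKO at 6 h, replicate 4 stood apart for Olfr99 (1.79 RPKM, others at least 2.69) and Angptl4 (0.0536, the others at 0). In WT, single libraries stood apart for Pram1 at 2 h (2.74 RPKM in replicate 1, others at least 3.34), Nrn1l at 0 h (2.31 in replicate 3, others at most 1.09), Gm8801 at 1 h (0.0633 in replicate 2, the others at 0) and Hspa1b at 1 h (3.89 in replicate 2, others at most 2.49).

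The genotype difference of Col11a2 differed between times by the test of that difference (limma, adjusted p = 0.0209), as given above.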

How the results depend on the processing

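The number of flanking genes called moved by over 1.5 times under the following settings, each given with the share of all genes called under it. At 0 h (17 with all libraries) it was 26 without a filter (6.21%), 8 with at least 5 RPKM in 4 libraries (5.63%), 47 without the 5 dKO libraries (26.2%) and 10 within 2 Mb (6.84%). At 1 h (19) it was 10 with at least 5 RPKM (9.67%), 38 fitting only the groups compared (20.3%), 73 without the 5 libraries (39.2%), 29 with the removed symbols put back and 11 within 2 Mb (both 10.9%). At 2 h (18) it was 36 with median-of-ratios scaling (18.3%), 34 with quantile normalization (18.9%), 6 with only the groups compared (1.69%), 60 without the 5 libraries (33.1%), 28 with the removed symbols and 11 within 2 Mb (both 12.4%). At 6 h (21) it was 12 with at least 5 RPKM (16.8%), 32 with only the groups compared (16.1%), 86 without the 5 libraries (46.9%), 32 with the removed symbols and 13 within 2 Mb (both 14.8%). The averaged count (64) was 104 when the means over times per genotype and number were fitted, without a block (57.6%), and 111 without the 5 libraries (61.4%). The test of a varying difference (1 gene) gave 0 with a pseudocount of 0.1 (0.556%) or at least 5 RPKM (0.691%), 3 with median-of-ratios scaling (1.43%), quantile normalization (1.44%) or no filter (1.24%), and 31 without the 5 libraries (22.5%). The main fit tested 187 flanking genes. Windows of 2 Mb tested 141 and the filter of 5 RPKM tested 143. No filter tested 309, and putting the removed symbols back tested 245. Counts under these settings therefore come from different numbers of genes and cannot be compared directly with the main counts. What moved the counts under the remaining settings was not tested.

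Leaving out 1 library at a time gave 10 to 20 at 0 h (lowest without WT replicate 3), 9 to 18 at 1 h (lowest without dKO replicate 2), 13 to 38 at 2 h (highest without dKO replicate 3), 15 to 22 at 6 h, 57 to 91 averaged, 0 to 2 for the varying difference and 179 to 182 for LPS in WT. With an additive replicate block the counts were 16, 19, 19 and 20 at the 4 times, 62 averaged, 1 for the varying difference and 182 for LPS. Same-numbered libraries of different times correlated above 0.1 in their deviations for 16 of 24 pairs within WT and 5 of 24 within dKO. Within WT the lowest correlation was 0.021 and the median 0.14, so same-numbered WT libraries may share a source. Within dKO, with the 5 libraries included, the median was -0.065. The main fit took all libraries as independent, and its averaged p-values carry that limit. Of 2921 pairs of a named gene's call and a setting, 2678 kept direction and call, 243 lost the call and 0 reversed. Averaged calls held under every setting run for 31 of 44 named genes. Low values limit Gm8801, Nrn1l, Mtss1l and Col11a2, mostly under 3 RPKM, whose read counts are unknown.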
